A study of Mus musculus with 12 samples.

Results

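This account covers 8 genes of the megakaryocyte and platelet lineage, Vwf, Itga2b, F2rl2, Tubb1, Pf4, Gp1bb, Gp9 and Gp6, out of 21883 protein-coding genes. They were chosen by name, after the H3K27ac differences of several of them were known, and every peak overlapping a gene body or the 10 kb on either side of it was taken from 12 peak lists. The cells were cKit+ bone marrow cells of C57BL/6 mice, a fraction of blood stem and progenitor cells, and their chromatin was profiled by immunoprecipitation and sequencing (ChIP-seq) with antibodies to acetylated lysine 27 (H3K27ac), monomethylated lysine 4 (H3K4me1) and trimethylated lysine 4 (H3K4me3) of histone H3. For each mark there were 2 libraries from Phf6R274X Tg mice (Tg) and 2 from wild type mice (WT). Phf6 encodes an X-linked chromatin protein that is mutated in human leukaemias, and the R274X change truncates it. The promoter that drives the transgene, the age of the mice and whether animals were pooled are not given in the sources used here, and nothing says that the replicates came from separate animals. The series asks how chromatin differs in cells that carry the Phf6 mutation.

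Megakaryocytes are the bone marrow cells that shed platelets, and they arise from stem cells and from progenitors shared with red cells. Platelets catch on a wound when von Willebrand factor (Vwf) tethers them through the glycoprotein Ib-IX receptor, whose small subunits are the products of Gp1bb and Gp9. Collagen signals through glycoprotein VI (Gp6), thrombin cuts protease-activated receptors such as that of F2rl2, and the integrin containing the Itga2b product then binds fibrinogen. H3K27ac is found at active promoters and enhancers, H3K4me1 around enhancers and H3K4me3 at promoters that are active or poised.

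The promoters of 4 of the genes are shown because some of the peaks described below lie on or beside them. The windows of F2rl2 and Tubb1 had less H3K27ac in the Tg libraries, that of Itga2b had more and that of Pf4 had none. At Tubb1 the peaks on or beside the promoter are not H3K27ac peaks. Each line gives the 250 bases before the start site, 5′ to 3′ on the strand of the gene, from the RefSeq promoter table for GRCm38.p6. Capitals mark the letters AGATAA, a motif of GATA factors, or GGAAG, the core of ETS factor motifs, read on either strand.
F2rl2 (plus strand, chr13:95696670-95696919): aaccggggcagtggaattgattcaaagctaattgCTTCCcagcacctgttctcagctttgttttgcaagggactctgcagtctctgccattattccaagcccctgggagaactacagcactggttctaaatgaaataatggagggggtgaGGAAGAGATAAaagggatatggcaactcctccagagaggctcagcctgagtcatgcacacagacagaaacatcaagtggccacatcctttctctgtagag
Tubb1 (plus strand, chr2:174450345-174450594): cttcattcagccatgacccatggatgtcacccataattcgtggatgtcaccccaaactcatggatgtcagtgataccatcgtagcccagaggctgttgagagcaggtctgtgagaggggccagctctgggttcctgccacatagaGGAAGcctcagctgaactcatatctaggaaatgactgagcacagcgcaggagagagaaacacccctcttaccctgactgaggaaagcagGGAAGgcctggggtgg
Itga2b (minus strand, chr11:102469884-102470133): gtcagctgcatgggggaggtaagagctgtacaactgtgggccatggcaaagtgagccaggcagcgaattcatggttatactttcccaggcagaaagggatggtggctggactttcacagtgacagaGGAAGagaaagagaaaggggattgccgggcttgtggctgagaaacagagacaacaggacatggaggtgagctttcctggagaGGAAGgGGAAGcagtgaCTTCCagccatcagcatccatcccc
Pf4 (plus strand, chr5:90772185-90772434): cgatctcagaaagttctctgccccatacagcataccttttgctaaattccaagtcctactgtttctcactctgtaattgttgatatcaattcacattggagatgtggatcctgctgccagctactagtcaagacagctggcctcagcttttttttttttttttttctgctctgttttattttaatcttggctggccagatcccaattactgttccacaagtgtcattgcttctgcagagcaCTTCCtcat
AGATAA occurs in F2rl2 alone of these 4, 95 bases before the start, where it follows GGAAG directly without sharing a letter with it. Among the members not shown, Gp6 holds AGATAA 144 bases before its start, and Gp9 holds a RUNX motif, TGTGGT, 171 bases before its start. Of 17491 promoters of the same length, 9.12% held AGATAA, 64.6% held GGAAG and 12.5% held TGTGGT, a RUNX motif with no match in the 4 promoters shown. The G and C content of the 4 was 48.4% in F2rl2, 54.0% in Tubb1, 54.0% in Itga2b and 41.2% in Pf4, against a median of 55.2% over all promoters. H3K27ac peaks reached into these 250 bases in WT replicate 1 for F2rl2, in Tg replicate 2 and WT replicate 2 for Itga2b, and in no library for Tubb1 and Pf4. H3K4me1 peaks did so for Tubb1 in both Tg libraries and in neither WT library.

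The measure used here is the length covered by peaks, since the lists hold no read counts and the depth of each library is unknown. The Tg lists covered 28.5 and 33.8 Mb of the genome in H3K27ac, against 45.7 and 36.6 Mb in the WT lists. In H3K4me1 the totals followed the replicate number, with 70.7 and 117 Mb in Tg replicates 1 and 2 and 66.3 and 120 Mb in WT replicates 1 and 2. In H3K4me3 they were 40.9 and 40.0 Mb in the libraries labelled Tg and 43.6 and 38.3 Mb in those labelled WT. In the 4 H3K4me3 lists the genotype written in the peak names is the other one than on the label. In the remaining 8 lists it matches the label, and each H3K4me3 direction below goes by the label alone. Peaks inside Phf6 itself numbered 0 in each H3K27ac library, 1 and 6 in Tg and 0 and 1 in WT for H3K4me1, and 0 and 0 in the libraries labelled Tg and 6 and 4 in those labelled WT for H3K4me3. Kit, the marker used for sorting, held peaks in all 12 libraries. Cd34, another progenitor marker, had no H3K27ac peak in any of the 4 libraries.

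Across the 8 windows together, H3K27ac covered 5.15 and 8.42 kb in Tg, against 11.5 and 8.13 kb in WT. H3K4me1 covered 24.4 and 46.3 kb in Tg, against 26.8 and 50.4 kb in WT, and H3K4me3 covered 16.8 and 22.8 kb in the libraries labelled Tg, against 23.6 and 16.8 kb in those labelled WT. The summed lengths of the genotypes thus overlapped in every mark, and the differences described below lie in single genes. Of the 8 genes, 7 passed the filter of a peak in at least 2 of 4 libraries for H3K27ac (all but Pf4), 8 for H3K4me1 and 7 for H3K4me3 (all but Gp6). In H3K27ac, both Tg libraries lay above both WT libraries at Itga2b, where the share over all genes tested was 5.58%. Both lay below at F2rl2, Tubb1, Gp1bb and Gp6, where the share over all genes was 45.3%. Gp6 passed the filter through its WT libraries alone, so its order is not independent of that filter. The Tg lists covered less of the genome in all, and nothing about the 4 genes is read from their number. In H3K4me1 the genotypes overlapped at all 8 genes, where both Tg libraries lay above both WT libraries at 2.5% of all genes tested and below at 6.47%.

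**Figure D1:**
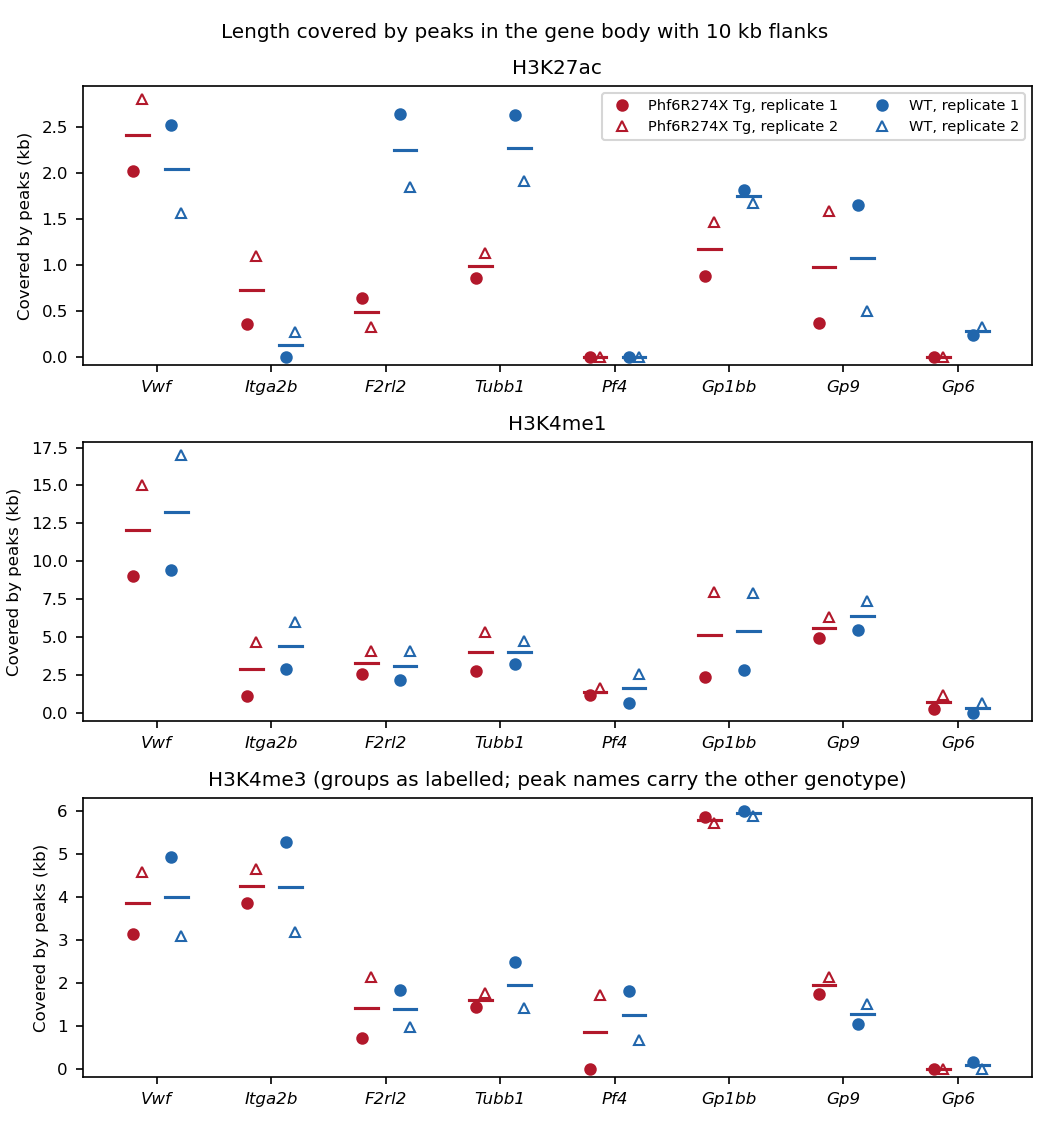
Length covered by peaks (kb) in the gene body with 10 kb flanks, for each of the 8 genes (x axis) and each library, with Phf6R274X Tg left of WT in each gene and bars at the means of 2 libraries. For H3K27ac the Tg points lie below the WT points at F2rl2 and Tubb1 and above them at Itga2b; for H3K4me1 the replicate 2 points (triangles) lie above the replicate 1 points of their own genotype at every gene.

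Since the members were picked with the H3K27ac contrast in view, their H3K27ac values are a description and carry no test. For H3K4me1 and H3K4me3 a log2 difference, Tg minus WT, was fitted by limma over all genes on log2 (covered bp + 500) after quantile normalization, and p-values were adjusted over all genes tested. No gene passed an adjusted p of 0.05 in H3K4me1 (0 of 16130, or 0.0%, with 1356 genes at an unadjusted p under 0.05). None passed in H3K4me3 either (0 of 16132, or 0.0%, with 736 at an unadjusted p under 0.05). In H3K27ac, 21 genes rose (0.154% of 13601) and 30 fell (0.221%). A p that misses the threshold does not show that the genotypes were alike.

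Vwf encodes the multimeric protein that tethers platelets to exposed collagen, and it is made by megakaryocytes and by endothelial cells. The gene spans 134 kb of chromosome 6 (125552948 to 125686679, mm10), and the tables used here give neither its strand nor its exons, so positions are counted from its annotated end of lower coordinate. H3K27ac covered 2030 and 2808 bp in Tg and 2525 and 1571 bp in WT. These lengths overlapped between genotypes, with means of 2.42 ± 0.55 kb in Tg and 2.05 ± 0.67 kb in WT (SD, n = 2 each) and a log2 difference of 0.45 ± 0.18 (SE). Its order depended on the window: within 10 kb of either gene end, H3K27ac was listed at 0 in both Tg libraries, against 596 and 306 bp in WT, and the log2 difference was -0.63.

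Most of the H3K27ac of Vwf was a single region 20.1 kb into the gene, at chr6:125572259-125573840, which covered 1438 and 1554 bp in Tg and 1546 and 1265 bp in WT. The same place held an H3K4me1 region (1639 and 1606 bp in Tg, 1666 and 1574 bp in WT) and an H3K4me3 region (1371 and 1297 bp in the libraries labelled Tg, 1192 and 1219 bp in those labelled WT). All 3 marks were thus present there in all 12 libraries, with widths that overlapped between genotypes for H3K27ac and H3K4me1 and lay slightly higher in the libraries labelled Tg for H3K4me3. By −log10 q, the authors' own value, the H3K27ac peak stood at percentiles 79.5 and 80.7 of its Tg list and 73.9 and 71.5 of its WT list.

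A second place with all 3 marks lay 50 kb into the gene, but its H3K27ac peaks came from Tg libraries. Tg replicate 1 had a peak of 337 bp centred at 50.2 kb and Tg replicate 2 one of 335 bp centred at 50.6 kb, and these did not overlap each other. Both lay inside an H3K4me3 region of 1469 and 1523 bp in the libraries labelled Tg and 1774 and 1323 bp in those labelled WT, and inside an H3K4me1 region present in all 4 libraries. Both WT libraries had no H3K27ac peak there. At 125 kb the order turned: an H3K27ac region was listed at 0 in both Tg libraries, against 358 and 306 bp in WT, over H3K4me1 of 1309 and 1556 bp in Tg and 397 and 1676 bp in WT. The WT peaks there were weak ones, at percentiles 15.1 and 12.2 of −log10 q in their lists.

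Over the whole Vwf window, H3K4me1 covered 9048 and 15034 bp in Tg and 9458 and 17013 bp in WT, with a log2 difference of -0.11 ± 0.20 (SE, limma adjusted p = 0.907). The replicates of each genotype stood further apart than the genotypes did. Within it, 3 H3K4me1 regions were absent from both Tg libraries and present in both WT libraries, with WT lengths of 547 and 291 bp at -3.1 kb, 581 and 499 bp at 11.7 kb, and 969 and 1020 bp at 12.8 kb. H3K4me3 covered 3151 and 4581 bp in the libraries labelled Tg and 4938 and 3092 bp in those labelled WT, a log2 difference of -0.02 ± 0.24 (limma adjusted p = 0.992). The libraries differed most at the annotated end of lower coordinate, where a region covered 0 and 1298 bp in the libraries labelled Tg and 1186 and 153 bp in those labelled WT.

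**Figure D2:**
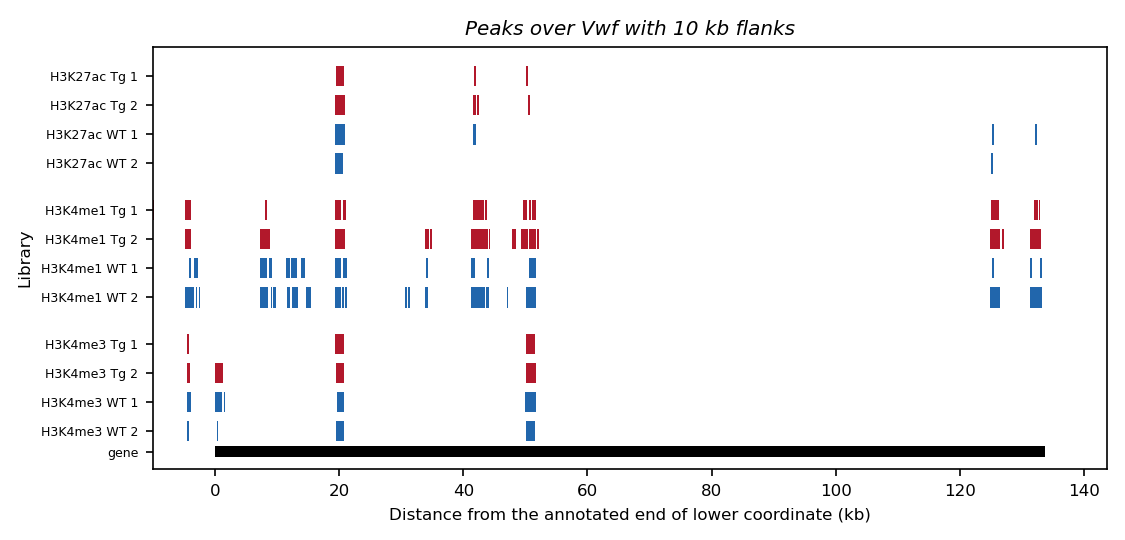
Peaks of each library over Vwf with 10 kb flanks (x axis: distance in kb from the annotated end of lower coordinate; Tg red, WT blue; black bar: the gene). Peaks of all 12 libraries stand at 20.1 kb, small H3K27ac peaks of the Tg libraries at 50 kb and of the WT libraries at 125 kb.

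Vwf is also made by endothelium, so markers of that cell type were read in the same libraries. Of 6 endothelial genes (Cdh5, Kdr, Tek, Tie1, Emcn and Esam), Tek, Emcn and Esam had no H3K27ac peak in any of the 4 libraries. The summed H3K27ac of the 6 was 0.52 and 1.47 kb in Tg and 0.40 and 0.34 kb in WT. Their part in the Vwf values was not tested.

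Gp1bb and Gp9 encode the beta subunit of glycoprotein Ib and glycoprotein IX, which anchor the Vwf receptor in the platelet membrane. Gp1bb (chromosome 16, 18620319 to 18622403, minus strand) had 878 and 1469 bp of H3K27ac in Tg and 1815 and 1682 bp in WT, with Tg below WT and a log2 difference of -0.23 ± 0.16 (SE). None of it lay at the start of Gp1bb. It lay mainly 6.7 kb before that start, at an annotated end of the neighbouring Septin5, where a region covered 878 and 1238 bp in Tg and 1577 and 1682 bp in WT. Within 1 kb of its own start, Gp1bb had H3K4me1 in all 4 libraries, 252 and 840 bp in Tg and 400 and 1397 bp in WT.

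H3K4me3 over the Gp1bb window was the steadiest value of the 8 genes, 5876 and 5733 bp in the libraries labelled Tg and 6010 and 5903 bp in those labelled WT. The genotypes as labelled did not overlap (Tg below WT, as at 18.2% of all genes tested), but the log2 difference was -0.04 ± 0.08 (limma adjusted p = 0.959). Between 5535 and 5903 bp of it per library lay in regions within 1 kb of an annotated end of Septin5. These take in the region inside Gp1bb itself, which covered 659 and 1220 bp in the libraries labelled Tg and 1496 and 1117 bp in those labelled WT. H3K4me1 covered 2380 and 7972 bp in Tg and 2840 and 7940 bp in WT (log2 difference -0.04 ± 0.36, limma adjusted p = 0.985), which followed the replicate number and not the genotype.

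Gp9 (chromosome 6, 87776131 to 87779786, plus strand) had 377 and 1590 bp of H3K27ac in Tg and 1654 and 506 bp in WT. The genotypes overlapped, with means of 0.98 ± 0.86 kb in Tg and 1.08 ± 0.81 kb in WT (SD, n = 2 each). At the start itself a peak was present in 1 library of each genotype, with 0 and 791 bp in Tg and 904 and 0 bp in WT. H3K4me1 covered the start almost without a gap, 1980 and 2001 bp of the 2 kb around it in Tg and 1924 and 2001 bp in WT, which was the widest H3K4me1 cover at a start among the 7 genes with a known start.

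The whole Gp9 window held 4968 and 6312 bp of H3K4me1 in Tg and 5513 and 7362 bp in WT (log2 difference -0.12 ± 0.25, limma adjusted p = 0.921). H3K4me3 covered 1745 and 2157 bp in the libraries labelled Tg, above the 1051 and 1526 bp in those labelled WT, an order found at 11.5% of all genes tested. The log2 difference was 0.54 ± 0.22 (limma adjusted p = 0.923). Part of this cover in each mark lay near an end of the neighbouring Rab43.

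Gp6 encodes the collagen receptor that signals through the Fc receptor gamma chain. By share of its window it had the least H3K4me1 of the 8 genes in every library, at 0.555% and 2.19% in Tg and 0% and 1.28% in WT. Its H3K27ac was listed at 0 in both Tg libraries, against 244 and 325 bp in WT. That region, chr7:4364477-4364905, lay 33 kb past the start site, near the far end of the gene (chromosome 7, 4362853 to 4397851, minus strand). H3K4me1 there covered 305 and 812 bp in Tg and 0 and 703 bp in WT, so WT replicate 1 had the H3K27ac peak without an H3K4me1 peak. Over the window, H3K4me1 covered 305 and 1203 bp in Tg and 0 and 703 bp in WT (log2 difference 0.68 ± 0.20, limma adjusted p = 0.478). The only H3K4me3 was 180 bp at the start, in the library labelled WT replicate 1.

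Itga2b encodes the alpha subunit of the fibrinogen receptor of platelets, and in the embryo it is also an early marker of blood progenitors. H3K27ac covered 358 and 1103 bp in Tg and 0 and 277 bp in WT, the only member with both Tg libraries above both WT libraries (0.73 ± 0.53 kb in Tg and 0.14 ± 0.20 kb in WT, SD, n = 2 each). The log2 difference was 1.05 ± 0.28 (SE), and 0.20 with flanks of 25 kb. It depended on the constant added before the log as well, at 2.27 with 100 bp and 0.39 with 2000 bp. The gene lies on the minus strand (chromosome 11, 102453297 to 102469883), and its H3K27ac peaks lay around the start, from the promoter side to 2.5 kb past it. At chr11:102467167-102467628, 2.5 kb past the start, a region covered 358 and 271 bp in Tg and was listed at 0 in both WT libraries.

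The Itga2b peaks were weak ones. The 2 Tg peaks 2.5 kb past the start stood at percentiles 15.6 and 3.0 of −log10 q within their lists. At the start, a region covered 0 and 596 bp in Tg and 0 and 277 bp in WT, so that 1 library of each genotype had a peak there. A further peak of 236 bp before the start, at chr11:102470454-102470689, was in Tg replicate 2 alone. H3K4me3 was far wider at the same place, 2089 and 2965 bp in the libraries labelled Tg and 3215 and 1590 bp in those labelled WT, in a region that runs from the start past the H3K27ac peaks.

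Over the whole Itga2b window, H3K4me3 covered 3872 and 4659 bp in the libraries labelled Tg and 5285 and 3185 bp in those labelled WT (log2 difference 0.05 ± 0.21, limma adjusted p = 0.984). H3K4me1 covered 1133 and 4662 bp in Tg and 2900 and 5997 bp in WT, with a log2 difference of -0.61 ± 0.32 (limma adjusted p = 0.657). For this gene the H3K27ac and H3K4me1 differences thus had opposite signs, and the H3K4me1 lengths overlapped between genotypes. H3K4me1 was missing in Tg replicate 1 over the Tg-only H3K27ac region, with 0 and 828 bp in Tg and 1073 and 1289 bp in WT.

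F2rl2 encodes protease-activated receptor 3, which in mouse platelets helps thrombin to cut protease-activated receptor 4. The gene lies inside Iqgap2 on chromosome 13 (95696920 to 95702768, plus strand). H3K27ac covered 649 and 326 bp in Tg and 2643 and 1854 bp in WT, with means of 0.49 ± 0.23 kb in Tg and 2.25 ± 0.56 kb in WT (SD, n = 2 each). The log2 difference was -1.31 ± 0.32 (SE), and the groups did not overlap. With flanks of 5 kb, which leave out the second of the places below, it was -0.80, and with a constant of 100 or 2000 bp it was -1.95 and -0.65.

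The lower cover of the F2rl2 window in Tg came from 2 places. The region at the start, chr13:95696770-95698546, was present in all 4 libraries but covered 649 and 326 bp in Tg, against 1777 and 1068 bp in WT. A region 15.5 kb past the start, chr13:95711848-95713051, lay outside F2rl2 itself, past its end at 95702768. That region was listed at 0 in both Tg libraries, against 866 and 1069 bp in WT. H3K4me1 was present at that second place in all 4 libraries, with 380 and 1089 bp in Tg and 1028 and 1201 bp in WT. The WT peaks at the second place stood at percentiles between 13.3 and 30.5 of −log10 q in their lists.

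At the start of F2rl2 the H3K4me1 cover was 2327 and 2762 bp in Tg and 1180 and 2450 bp in WT, which overlapped. Over the window it was 2587 and 4069 bp in Tg and 2191 and 4079 bp in WT (log2 difference 0.16 ± 0.20, limma adjusted p = 0.854). H3K4me3 covered 731 and 2137 bp in the libraries labelled Tg and 1839 and 979 bp in those labelled WT (log2 difference 0.06 ± 0.38, limma adjusted p = 0.986). Neither mark separated the genotypes at this gene.

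Tubb1 encodes beta-1 tubulin, which forms the ring of microtubules that keeps platelets discoid. The gene is on chromosome 2 (174450595 to 174458380, plus strand). H3K27ac covered 860 and 1128 bp in Tg and 2634 and 1915 bp in WT, with means of 0.99 ± 0.19 kb in Tg and 2.27 ± 0.51 kb in WT (SD, n = 2 each) and a log2 difference of -0.67 ± 0.15 (SE). The groups did not overlap. The start of Tubb1 itself had no H3K27ac peak in any library.

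The H3K27ac difference in the Tubb1 window lay 6.9 kb before the Tubb1 start. There a region, chr2:174442982-174444372, covered 0 and 274 bp in Tg and 1391 and 1091 bp in WT. H3K4me1 was present at the same place in all 4 libraries, 1351 and 1965 bp in Tg and 1775 and 2019 bp in WT. Further from Tubb1, an H3K4me1 region of all 4 libraries, chr2:174435324-174440823, lay within 1 kb of the start of another gene, Ctsz. Whether the H3K27ac region belongs to Tubb1 or to Ctsz was not tested. The H3K27ac region at ends of the neighbouring Atp5e and Prelid3b, covered 860 and 854 bp in Tg and 1004 and 824 bp in WT and so overlapped between genotypes. With flanks of 5 kb, which leave out the region before the start, the log2 difference of Tubb1 was 0.08, and with flanks of 25 kb it was 0.03.

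H3K4me1 over the Tubb1 window covered 2773 and 5345 bp in Tg and 3269 and 4750 bp in WT (log2 difference 0.06 ± 0.22, limma adjusted p = 0.965). Inside it, small regions differed in both directions: 441 and 320 bp over the start in Tg with none in WT, and none in Tg with 341 and 431 bp in WT 3.6 kb past the start. H3K4me3 covered 1453 and 1775 bp in the libraries labelled Tg and 2502 and 1414 bp in those labelled WT (log2 difference -0.14 ± 0.20, limma adjusted p = 0.948). Regions at the ends of Atp5e and Prelid3b took 1453 and 1434 bp in the libraries labelled Tg and 1604 and 1414 bp in those labelled WT. The rest was 0 and 341 bp in the libraries labelled Tg and 898 and 0 bp in those labelled WT. Within 1 kb of the Tubb1 start 167 bp was listed in the library labelled WT replicate 1 and none in the other 3.

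Pf4 encodes platelet factor 4, a chemokine stored in alpha granules. The gene (chromosome 5, 90772435 to 90773383, plus strand) had no H3K27ac peak in its window in any of the 4 libraries. The other marks were present at its start. H3K4me1 covered 1191 and 1675 bp of the window in Tg and 665 and 2604 bp in WT (log2 difference 0.03 ± 0.29, limma adjusted p = 0.985), with a region around the start in all 4 libraries. H3K4me3 covered 0 and 1720 bp in the libraries labelled Tg and 1828 and 690 bp in those labelled WT (log2 difference -0.43 ± 0.67, limma adjusted p = 0.955).

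The neighbouring Ppbp, the gene of another alpha granule chemokine, also had no H3K27ac peak, and its H3K4me3 was 0 and 2.42 kb in the libraries labelled Tg and 2.46 and 1.04 kb in those labelled WT. The windows of Pf4 and Ppbp share peaks. At Pf4, as at Vwf, Itga2b, F2rl2 and Tubb1, the higher H3K4me3 libraries were those labelled Tg replicate 2 and WT replicate 1. Whether this is a feature of those libraries was not tested.

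**Figure D3:**
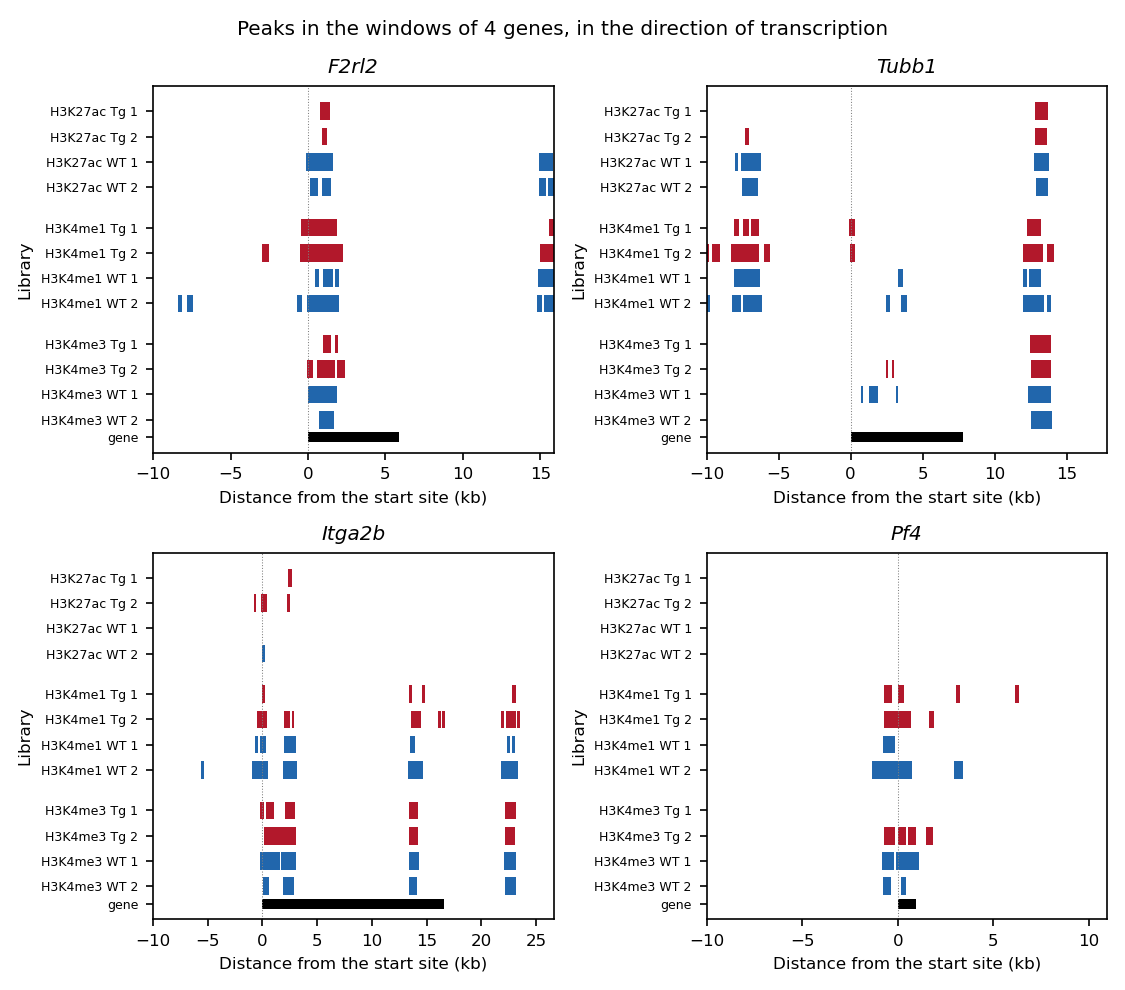
Peaks of each library in the windows of F2rl2, Tubb1, Itga2b and Pf4 (x axis: distance in kb from the start site in the direction of transcription; Tg red, WT blue; black bar: the gene). WT H3K27ac peaks without a Tg counterpart stand 15.5 kb past the F2rl2 start, most H3K27ac cover before the Tubb1 start is WT, the Itga2b peaks at 2.5 kb are Tg, and the H3K27ac tracks of Pf4 are empty.

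The start sites of 7 of the genes are in the RefSeq promoter table, all but that of Vwf. Within 1 kb of them, H3K27ac peaks were found at 1 and 3 genes in Tg and at 2 and 2 in WT. Over 17491 genes with a start the shares were 45.8% and 48.4% in Tg and 48.6% and 46.9% in WT. H3K4me1 reached 6 and 6 of the 7 starts in Tg and 5 and 5 in WT, where the shares over all genes were 47.3% and 60.1% in Tg and 50.1% and 60.5% in WT. H3K4me3 reached 4 and 5 starts in the libraries labelled Tg and 7 and 5 in those labelled WT. For H3K4me3 the shares over all genes were 60.1% and 61.9% in the libraries labelled Tg and 62.9% and 62.0% in those labelled WT.

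The starts differed from gene to gene. Gp9 had the broadest H3K4me1 there in every library, Pf4 had H3K4me1 in every library without H3K27ac, and the start of Gp6 had neither.

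**Figure D4:**
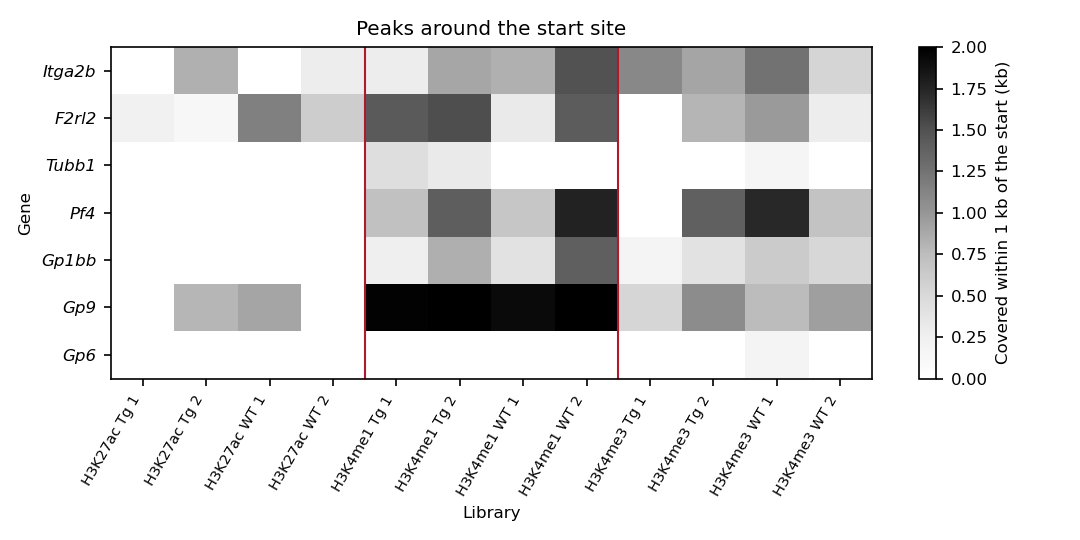
Length covered by peaks (kb, grey scale) within 1 kb of the start site of 7 genes, in each of the 12 libraries, Tg left of WT in each mark and red lines between marks. The H3K27ac block is mostly empty, and the H3K4me1 block is darkest at Gp9, with 1.92 to 2.00 kb in each library.

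Merging overlapping peaks of the 4 lists of a mark gave 21 H3K27ac regions in the 8 windows. Of these, 1 was present in both Tg libraries and in neither WT library (the region at Itga2b), 3 were absent from both Tg libraries and present in both WT libraries (those at Vwf, F2rl2 and Gp6), and 5 were in all 4. The shares over all 48376 H3K27ac regions were 1.94% Tg-only, 4.9% WT-only and 40.5% in all 4. Of 63 H3K4me1 regions in the windows, 1 was Tg-only, 4 were WT-only and 23 were in all 4, where the shares over all 139885 regions were 1.97%, 3.25% and 33.0%. Of 28 H3K4me3 regions, none was found in the libraries of a single label only and 13 were in all 4, where the shares over all 44957 regions were 1.47% Tg-only, 2.24% WT-only and 54.7% in all 4. At 2 of the 3 WT-only H3K27ac regions, those at Vwf and F2rl2, H3K4me1 was present in all 4 libraries. The same held for most of the 21 H3K27ac regions in the windows, so it is not particular to the WT-only ones.

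Markers of mature granulocytes, cells that lack Kit and that the sort for cKit+ would remove, were read in the H3K27ac lists too. Of 10 such genes, 9 had both Tg libraries below both WT libraries, where the share over all genes was 45.3%. At an adjusted p under 0.05 in limma 1 of the 10 fell (Mmp8, named after its values were seen), against 0.221% of all genes, and none of the 10 was at 0 in all 4 libraries. Their summed H3K27ac was 57.9 and 55.6 kb in Tg and 114 and 116 kb in WT. The other marks did not have this order. In H3K4me1 the median log2 difference of the 10 was 0.27, with 0 genes lying above and 0 below. In H3K4me3 it was 0.42 by label, with 4 genes above and 0 below. The H3K4me3 shares over all genes were 11.5% above and 18.2% below. The summed H3K27ac of 6 progenitor markers was 21.1 and 22.7 kb in Tg and 43.3 and 34.4 kb in WT. Much of that gap was at Ptprc, a gene of all white blood cells, with 8.83 and 9.56 kb in Tg and 23.9 and 19.3 kb in WT. Myb also lay lower in both Tg libraries, with 7.66 and 9.37 kb in Tg and 12.5 and 11.3 kb in WT. Kit and Gata2 overlapped between genotypes, Cd34 was at 0 and Cd48 lay higher in both Tg libraries. In such bulk samples fewer cells with a mark and less of the mark per cell cannot be told apart. The part of the granulocyte and Ptprc values in the F2rl2 and Tubb1 values was not tested.

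A further 33 genes of the lineage, listed by role with earlier results known, were read in the same fits. In H3K27ac, 23 of the 33 could be tested, 0 rose and 1 fell, where 0.154% of all genes rose and 0.221% fell. They had a median log2 difference of 0.03 against 0.04 over all genes tested. The gene that fell was Thbs1, which encodes thrombospondin-1, an alpha granule protein: it was listed at 0 in both Tg libraries, against 1.85 and 2.62 kb in WT (limma adjusted p = 0.0489). Thbs1 passed the gene filter through its WT libraries alone, so its test is not independent of that filter. Without the gene filter its limma adjusted p was 0.391. Its adjusted p was above 0.05 under most other settings, among them flanks of 5 kb (0.117) and scaling to the total covered length (0.0659).

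Another 8 of the 33 had no H3K27ac peak in any library, among them the glycoprotein gene Gp5 and Gata1, a transcription factor that drives megakaryocyte and red cell development. Both Tg libraries lay above both WT libraries at 2 of the 23 genes tested and below at 14, against 5.58% and 45.3% over all genes. P2ry12, which encodes the platelet ADP receptor, had 2.16 and 6.13 kb in Tg and 9.57 and 7.76 kb in WT (log2 difference -0.76 ± 0.37, limma adjusted p = 0.466). Its difference rested on the Tg library used. Without Tg replicate 2 it was -1.37 (limma adjusted p = 0.0121, with the spread taken from the WT libraries alone), and without Tg replicate 1 it was -0.18 (limma adjusted p = 0.823). Without WT replicate 1 or WT replicate 2 the limma adjusted p was 0.969 and 0.748. Tal1, a transcription factor of stem cells and of the red cell and megakaryocyte lines, had 3.30 and 4.29 kb in Tg and 2.85 and 2.53 kb in WT (log2 difference 0.69 ± 0.15, limma adjusted p = 0.155).

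In H3K4me1, 32 of the 33 were tested, 0 rose and 0 fell, and the median log2 difference was -0.03 against 0.00 over all genes tested. Both Tg libraries lay below both WT libraries at 7 of them and above at none, where the shares over all genes were 6.47% below and 2.5% above. Myl9, a myosin light chain gene, had 0 and 0.35 kb in Tg and 2.68 and 3.21 kb in WT. Zfpm1, which encodes the GATA1 partner FOG1, had 12.9 and 28.4 kb in Tg and 39.4 and 55.8 kb in WT (log2 difference -1.26 ± 0.26, limma adjusted p = 0.439). Gfi1b, a repressor needed for megakaryocytes and red cells, had 2.60 and 6.05 kb in Tg and 8.61 and 11.6 kb in WT (log2 difference -1.16 ± 0.23, limma adjusted p = 0.439).

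The other genes with both Tg libraries below both WT libraries were Rab27b (a GTPase of platelet granules), F2r (the gene of protease-activated receptor 1), Gata1 and Gp5. Several of these genes are also active in red cell precursors. Erythroid markers had the same order, and none of them was at 0 in all 4 libraries. The summed H3K4me1 of 8 such genes was 8.30 and 19.5 kb in Tg and 21.4 and 32.2 kb in WT. Of the 7 tested, 4 had both Tg libraries below both WT libraries, and their median log2 difference was -0.70. The part of those markers in the values of Zfpm1, Gfi1b and Gata1 was not tested. None of the 8 members showed this order in H3K4me1, where all 8 overlapped between genotypes.

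In H3K4me3, all 33 were tested, 0 rose and 0 fell, and the median log2 difference was 0.00, as over all genes tested. The libraries labelled Tg lay above both of those labelled WT at 2 of the 33 and below at 1, where the shares over all genes were 11.5% above and 18.2% below.

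**Figure D5:**
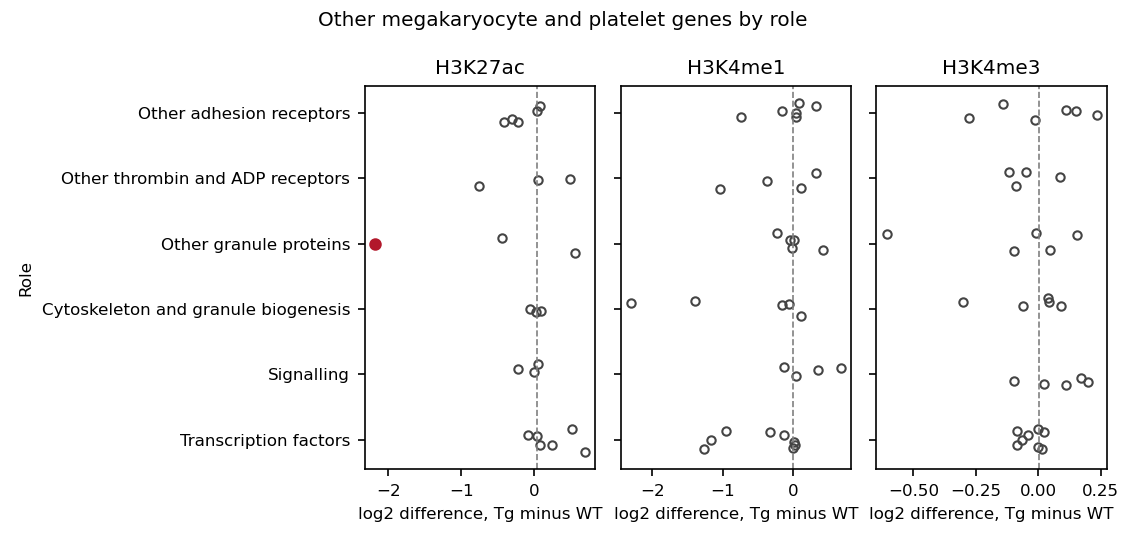
Log2 difference (Tg minus WT, x axis) of the 33 other megakaryocyte and platelet genes that could be tested in each mark, by role (y axis). The dashed line is the median over all genes tested and the filled point is Thbs1, the gene that passed an adjusted p of 0.05; in H3K4me1 the points at the far left are Myl9, Rab27b, Zfpm1 and Gfi1b.

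The pattern of each gene over the 12 libraries was also compared with that of all genes more than 100 kb away, as Pearson's r of log2 (covered bp + 500) centred within each mark. These r values are a description over libraries that share depth and peak calling. The closest patterns were those of Sting1 to Vwf (0.947), Fam78a to Itga2b (0.961), Nxpe5 to F2rl2 (0.937) and LOC115488470 to Tubb1 (0.977). For the other members they were Rbpjl for Pf4 (0.992), Plcxd2 for Gp1bb (0.998), C2cd3 for Gp9 (0.947) and Tmem150b for Gp6 (0.977).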

How the data were processed

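ChIP-seq of H3K27ac, H3K4me1 and H3K4me3 was run on cKit+ bone marrow cells, with 2 Tg and 2 WT libraries a mark. Per the labels' protocols, the cells were sorted on a BD FACSAria II, chromatin was precipitated with the Diagenode True MicroChIP kit, and MicroPlex libraries were sequenced as single reads of 75 bp on a NextSeq 500. FastQC, Trim Galore, Bowtie2, SAMtools, MACS2, deepTools and build mm10 are named per the submitters' processing notes. Their versions, settings and any control are not given in the sources used here.

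The authors deposited 1 narrowPeak list per library. Each deposited peak has a ratio (fold enrichment at its summit), its p-value and its q-value as −log10, and a deposited score equal to 10 times −log10 q with its decimals dropped. These values depend on depth and served only to rank peaks within a list or to set a stricter threshold. The lists hold peaks past a threshold and no read counts, so depth is unknown and no interval or floor was computed.

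Genes were 21883 protein-coding genes of unique symbol in a RefSeq table of GRCm38.p6 (mm10), and start sites and promoter sequences were matched by symbol in the RefSeq promoter table (7 of the 8 members and 17491 genes in all). Coordinates are 1-based. The covered length in the gene body with 10 kb flanks was computed per library, and log2 (covered bp + 500) of genes with a peak in at least 2 of 4 libraries was quantile normalized and fitted by limma 3.58.1 (lmFit and eBayes, R 4.3.3) within each mark, Tg minus WT, with Benjamini-Hochberg adjustment over all genes tested and a threshold of 0.05. Region lengths in the text are whole lengths and are not clipped at a window's edge. Tables were made with Python 3.11.15, numpy 2.4.6 and pandas 2.3.3, and plots with matplotlib 3.10.9. The fit was tested on simulated data. In H3K4me1 it has little power for log2 differences of up to 2, so the lack of calls in that mark does not show a lack of change. The p-values measure only the spread between these libraries, which may be technical.

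The members and the gene lists were chosen with earlier results of these data known. Values are given for all 8 members and, of 33 other genes of the lineage, for those that passed in a mark and at most 6 more a mark with the largest absolute difference. Ppbp was named after its values were seen, as the neighbour of Pf4, and Gp5 to complete a group. Alternatives were flanks of 5 and 25 kb, other scalings, constants of 100 and 2000 bp, no gene filter, peaks with −log10 q of at least 5, the number of peaks, a region called present only with 50% of it covered, a replicate block and leaving out each library. A window limited to the gene ends, a trend in the spread, and leaving out libraries for the regions were chosen after seeing the data. In H3K27ac the median log2 difference of all genes tested was -0.22 without normalization and 0.04 with it.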

Additional observations from a re-analysis of the deposited data

How the results depend on the processing

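The number of genes called in H3K27ac was 51 (21 higher and 30 lower in Tg, 41.2% higher) and depended on the setting. It was 11 with flanks of 5 kb (9.1% higher), 3 with scaling to the total covered length (0.0% higher), 1 without normalization (0.0% higher), 9 with a constant of 100 bp (11.1% higher), 9 without the gene filter (77.8% higher, none of them among the 51), 18 with the stricter peaks (16.7% higher) and 312 for the number of peaks (64.4% higher). Leaving out a library gave 0 to 536: 403 without Tg replicate 1, 536 without Tg replicate 2, and 0 without WT replicate 1 or WT replicate 2. With a replicate block it was 36 (9 higher and 27 lower), of which 28 were among the 51. Same-numbered libraries deviated from their group means with correlations of -0.233 in H3K27ac, 0.261 in H3K4me1 and -0.0894 in H3K4me3. No label ties a number to a shared animal or batch and there are only 2 numbers, so they were not taken as pairs, although the H3K4me1 totals of same-numbered libraries were close. In H3K4me1, 0 genes became 1 without normalization, 1 with a constant of 2000 bp and 10 with a trend in the spread. In H3K4me3, 0 became 8 without the gene filter and 681 for the number of peaks.

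Over all settings, 0 of 256 fits of members in H3K4me1 and H3K4me3 passed, the replicate block included, and the causes of the changes of sign below were not tested. In H3K4me1 the difference had the other sign for Vwf with the stricter peaks (0.18), Itga2b for the number of peaks (0.28), F2rl2 with flanks of 25 kb (-0.037) and for the number of peaks (-0.74), Tubb1 with flanks of 5 kb (-0.13) and 25 kb (-0.091), with total scaling (-0.057) and without normalization (-0.024), Pf4 with flanks of 5 kb (-0.051) and the stricter peaks (-0.62), and Gp1bb with flanks of 25 kb (0.093), the stricter peaks (0.11) and the number of peaks (0.088). Leaving out a library gave -0.12 to 0.23 for Tubb1, -0.24 to 0.32 for Pf4, -0.44 to 0.35 for Gp1bb and -0.32 to 0.072 for Gp9. In H3K4me3 the sign turned for Vwf with flanks of 25 kb (0.021) and the stricter peaks (0.003), Itga2b with the stricter peaks (-0.013) and the number of peaks (-0.029), F2rl2 with total scaling (-0.029), without normalization (-0.046) and with the stricter peaks (-0.22), and Tubb1 with the stricter peaks (0.13). Leaving out a library gave -0.27 to 0.22 for Vwf, -0.22 to 0.31 for Itga2b, -0.42 to 0.52 for F2rl2, -0.41 to 0.13 for Tubb1, -1.33 to 0.43 for Pf4 and -0.10 to 0.012 for Gp1bb.

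In H3K27ac, 60 of 82 member values under another setting moved by less than the spread between replicates and 22 by more, among them Vwf within the gene ends (-0.63) and Gp1bb for the number of peaks (0.16). The 60 take in the replicate block and the trend in the spread, which cannot change a log2 difference here. They therefore overstate how steady the values were. P2ry12 was at 0.004 for the number of peaks. Thbs1 could not be tested without a WT library, and its adjusted p over the other settings ran between 0.0029 and 0.466. With 50% of a region required to be covered, WT-only H3K27ac regions numbered 5 and regions in all 4 numbered 3, 7 and 7 in H3K27ac, H3K4me1 and H3K4me3. With the stricter peaks, H3K4me1 had 0 Tg-only, 1 WT-only and 13 regions in all 4. Leaving out a library gave 1 to 5 Tg-only and 3 to 6 WT-only regions in H3K27ac, 1 to 12 and 4 to 17 in H3K4me1, and 0 to 4 and 0 to 5 in H3K4me3. Unknown depth limits every value, since a peak just under the threshold is listed as 0.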
